A study of Homo sapiens with 4 samples.

Results

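The genes of the ATF4 and CHOP stress response were examined in ES2 cells, a human ovarian cancer cell line, after treatment with liquiritigenin (Liq), a plant flavanone that the study used as an agonist of estrogen receptor beta (ERβ). The set was chosen by gene symbol and held 10 genes, which were ATF4, DDIT3, TRIB3, CHAC1, PPP1R15A, ASNS, PSAT1, PHGDH, SESN2 and DDIT4. All 10 were present among the 23228 genes listed in the count tables, and all 10 were among the 13546 genes with enough reads to be tested. For 24 h the cells received either vehicle (2 samples) or Liq at 100 μM (2 samples), and total RNA was sequenced. The treatment and the time are given in the sample labels and the dose in the methods of the study. Both groups were kept in the same phenol red-free RPMI-1640 medium with dextran-charcoal treated serum, which is low in steroid hormones, and the vehicle is not named in the labels. ES2 is a single cell line, and the labels do not say whether the 2 samples of a group came from separate cultures, so the p-values measure only the spread between these samples.

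ATF4 is the central transcription factor of a stress response in which protein synthesis is slowed. When a kinase such as PERK in the endoplasmic reticulum (ER) or GCN2, which senses uncharged tRNA, phosphorylates the translation factor eIF2, most translation slows while the ATF4 mRNA is translated more, so ATF4 activity can rise without a rise in its mRNA. ATF4 then induces enzymes of amino acid synthesis, CHOP (the product of DDIT3) and, with CHOP, genes that end the response or lead towards cell death. ATF4 binds DNA as a dimer with a C/EBP protein at composite sites of the type TGATGNAA (N is any base).

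Promoters of 4 of the genes are shown, those of ASNS and CHAC1 because the window holds the composite ATF4 letters, and those of PPP1R15A and DDIT4 because these were the genes of the set whose transcripts changed. Each run is the 250 bases before a RefSeq transcription start (build GRCh38.p14), 5′ to 3′ on the strand of the gene, and capitals mark TGATGNAA on either strand in ASNS and CHAC1 and the cAMP response element TGACGTCA in PPP1R15A. The windows lie at chr7:97872409-97872658, minus strand for ASNS, chr15:40953221-40953470, plus strand for CHAC1, chr19:48872171-48872420, plus strand for PPP1R15A and chr10:72273674-72273923, plus strand for DDIT4.
ASNS: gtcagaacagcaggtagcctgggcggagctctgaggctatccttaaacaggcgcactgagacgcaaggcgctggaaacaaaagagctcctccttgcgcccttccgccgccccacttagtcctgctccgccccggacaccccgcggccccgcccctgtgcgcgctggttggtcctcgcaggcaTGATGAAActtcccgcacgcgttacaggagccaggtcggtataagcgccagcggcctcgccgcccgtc
CHAC1: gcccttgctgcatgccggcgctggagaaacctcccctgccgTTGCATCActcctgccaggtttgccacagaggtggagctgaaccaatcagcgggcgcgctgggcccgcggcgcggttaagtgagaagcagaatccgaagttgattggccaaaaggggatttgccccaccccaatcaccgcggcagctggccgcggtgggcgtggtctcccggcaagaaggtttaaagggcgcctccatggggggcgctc
PPP1R15A: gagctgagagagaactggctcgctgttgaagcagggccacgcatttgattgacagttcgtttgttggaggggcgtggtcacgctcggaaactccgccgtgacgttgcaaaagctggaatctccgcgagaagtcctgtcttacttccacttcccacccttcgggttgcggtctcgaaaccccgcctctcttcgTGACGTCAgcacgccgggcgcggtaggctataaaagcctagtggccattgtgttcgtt
DDIT4: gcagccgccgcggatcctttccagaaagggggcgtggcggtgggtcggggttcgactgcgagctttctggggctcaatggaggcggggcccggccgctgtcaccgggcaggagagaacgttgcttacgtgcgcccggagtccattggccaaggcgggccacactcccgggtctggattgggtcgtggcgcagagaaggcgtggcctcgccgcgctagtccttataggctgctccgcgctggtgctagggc
RefSeq gave 15 windows for the 10 genes. The figures for the set count genes and those for all promoters count windows, so the 2 are not on the same scale. Searched on both strands, TGATGNAA was found in windows of 2 of the 10 genes and in 3.14% of all 35116 promoter windows of this length. In ASNS it spans bases 68 to 61 before the start, and in CHAC1 bases 209 to 202 before the start, on the opposite strand. TGACGTCA was found in 1 of the 10 genes, PPP1R15A, at bases 58 to 51 before the start, against 1.65% of all windows. The PPP1R15A window also held the antioxidant response letters TGACNNNGC at 2 places, and no other gene of the set held them, against 10.9% of all windows. The hypoxia response core ACGTG was found in the windows of DDIT4 and ATF4, against 18.5% of all windows. The full palindromic estrogen response element and the ER stress response element (ERSE) were found in none of the 10 genes, against 0.0399% and 0.074% of all windows. Both are too rare for their absence from 15 windows to tell anything about the set. These matches describe letters in a short window, and binding was not measured.

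The tables hold raw reads counted per gene, with totals of 34573053 to 48933893 reads on genes per sample, at which 3 reads equal 0.0613 to 0.0868 CPM (reads scaled to a common library size). The member of the set with the fewest reads in any sample, CHAC1, had 338, so none of the 10 was limited by that floor. The mesenchymal marker VIM stood at 7479 ± 178 CPM in vehicle samples (SD, n = 2) and keratin KRT7 at 252 ± 20 CPM, whereas the epithelial genes EPCAM and CDH1 had 0 to 3 reads in every sample, as did the leukocyte genes PTPRC and CD3E. Of the list of markers of other cell types, 2 genes were expressed enough to be tested. CD68, a lysosomal protein used as a macrophage marker, had 71.0 ± 4.5 CPM in vehicle and did not pass, and the collagen gene COL1A1 rose from 1204 ± 58 to 1356 ± 102 CPM (SD, n = 2, edgeR adjusted p = 0.0457). Of the 7 tested epithelial, mesenchymal and ovarian markers 1 rose (KRT7) and 4 fell (VIM, KRT18, WT1 and PAX8), the last pair from levels of a few CPM or less. That was 71.4% of these markers, against 24% of all tested genes, of which 12.6% rose and 11.3% fell. VIM was at 6176 ± 431 CPM and KRT7 at 357 ± 29 CPM in Liq (SD, n = 2). Summed over the 7, the level was 7927 to 8222 CPM in vehicle and 6509 to 7173 CPM in Liq. Most of this sum was VIM, so it mainly repeats the fall of VIM and does not show the rise of KRT7. The part of these marker changes in the results that follow was not tested. In bulk RNA, fewer cells of a kind and less RNA per cell cannot be told apart. Of the estrogen receptors, ESR1 had 17 to 34 reads and ESR2, which encodes ERβ, 4 to 14 reads per sample, and ESR2 was too low to be tested.

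DDIT4 rose and PPP1R15A fell with Liq, and the other 8 genes did not pass the test, among them ATF4 itself, DDIT3, TRIB3, CHAC1 and ASNS. A gene passed when the p-value of edgeR's quasi-likelihood test, adjusted by the Benjamini-Hochberg method over all 13546 tested genes, was under 0.05. By that rule 1 of the 10 genes rose and 1 fell, where 12.6% of all tested genes rose, 11.3% fell and 24% passed in either direction, so the share of the set that passed was close to the background. With a fold change of at least 1.5 required as well, 1 of the 10 passed, against 6.45% of all tested genes. That gene was DDIT4, whose log2 fold change lay under the 1.5-fold line (0.585) without vehicle replicate 2 (0.520) and without Liq replicate 1 (0.584), so that 0 of the 10 then passed at 1.5-fold. It was also the only 1 of the 10 to pass at 1.5-fold with an unadjusted p under 0.05, as 7.85% of all tested genes did. Both Liq samples lay above both vehicle samples in 5 of the 10 genes and below them in 4, against 31.5% and 30.2% of all tested genes. For the 8 genes that did not pass, the 95% interval of the fold change lay within 1.5-fold in either direction. The median log2 fold change (Liq over vehicle) was 0.14 over the 10 genes and 0.01 over all tested genes. The smallest p that exact permutation of 2 and 2 samples allows is 0.33, so every call here draws on a spread that edgeR estimated from many genes together.

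**Figure D1:**
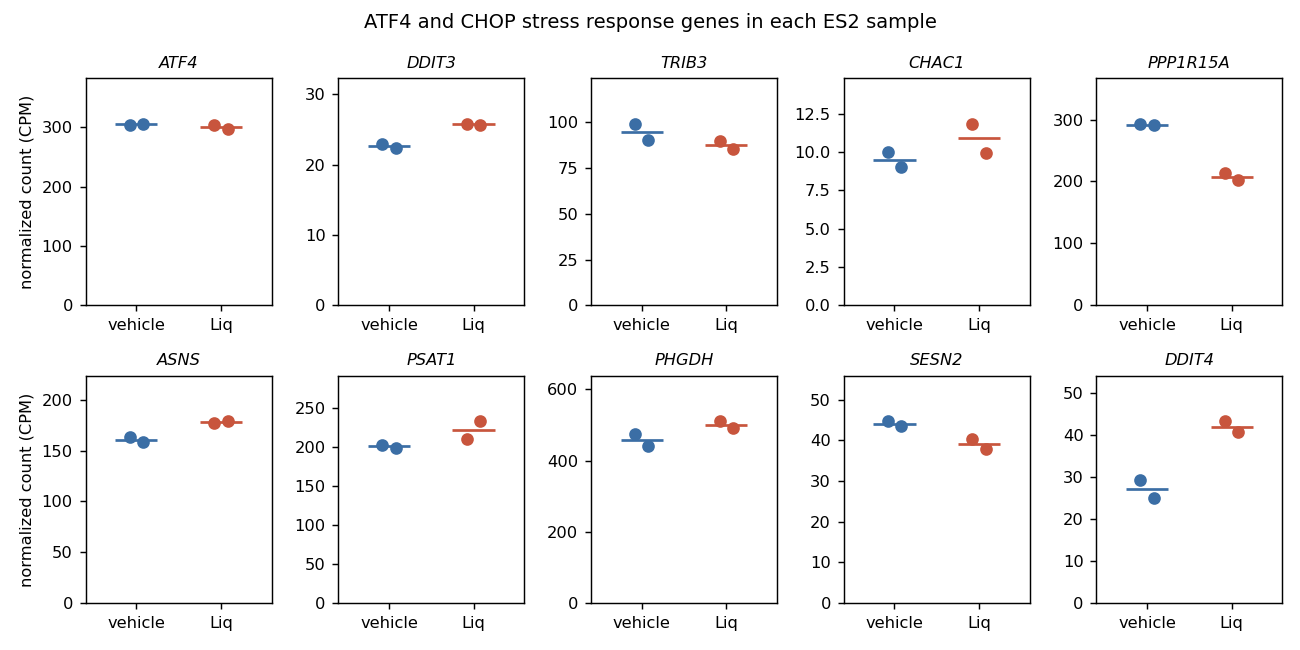
Normalized count (CPM, vertical axes from 0, 1 panel per gene) in each of the 2 vehicle and 2 Liq samples; points are samples and lines are group means. The DDIT4 points lie near 27 CPM in vehicle and 42 CPM in Liq, those of PPP1R15A near 292 and 208 CPM, and the other panels show smaller gaps relative to their level.

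**Figure D2:**
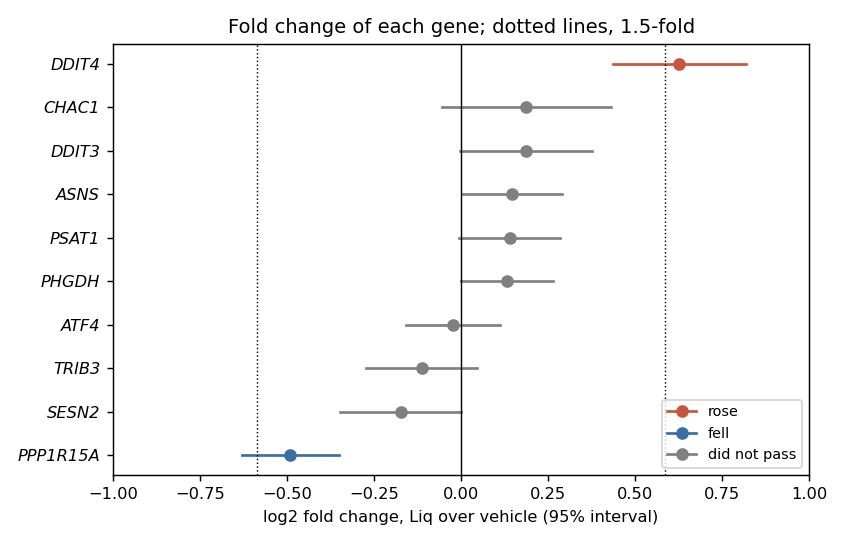
Log2 fold change of each of the 10 genes, Liq over vehicle (horizontal axis), with its 95% interval; dotted vertical lines mark 1.5-fold. The DDIT4 interval (0.44 to 0.82) and the PPP1R15A interval (-0.63 to -0.35) lie away from 0, and the 8 grey intervals lie between the dotted lines.

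Neither transcription factor of the response passed the test. ATF4 (ENSG00000128272, chromosome 22 from 39915700 to 39918688, GRCh37), the central factor, was at 304 and 306 CPM in the vehicle samples and at 304 and 296 CPM in the Liq samples. The Liq samples lay below the vehicle samples, 1 of them by less than 1 CPM. By edgeR the log2 fold change was -0.02 (SE 0.07, 95% interval -0.16 to 0.11, adjusted p = 0.831), and its sign depended on the scaling, being 0.06 with offsets along the expression level. DDIT3 (chromosome 12 from 57910371 to 57915520, minus strand), which encodes CHOP, was at 22.9 and 22.3 CPM in vehicle and at 25.8 and 25.6 CPM in Liq. Both Liq samples were above both vehicle samples, by a margin that did not pass the test (log2 fold change 0.19 with SE 0.09, 95% interval -0.004 to 0.38, edgeR adjusted p = 0.148). In the GENCODE annotation exons of DDIT3 overlap those of MARS1 and MBD6 on the other strand and those of an unnamed protein-coding gene on the same strand, and the strand setting of the counting is not given in the sources used here. MARS1, listed as MARS, did not pass, with 295 ± 10 CPM in the vehicle group and 288 ± 4 CPM after Liq (SD, n = 2).

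Of 3 further targets that limit the response or act in it, 1 fell. PPP1R15A (chromosome 19 from 49375469 to 49379316) encodes GADD34, which brings protein phosphatase 1 to eIF2 and so restores translation. It had 293 and 291 CPM in the vehicle samples and 214 and 202 CPM in the Liq samples. The gap between the groups was several times that between replicates. The level in Liq was 0.712 of that in vehicle (95% interval 0.646 to 0.784), or -0.49 on the log2 scale (SE 0.07, edgeR adjusted p = 6.115e-06), and this change was smaller than 1.5-fold. Among all tested genes, 3.70% had a lower log2 fold change. TRIB3 (chromosome 20 from 343479 to 378203), a pseudokinase that binds ATF4 and CHOP and dampens them, was at 99.3 and 90.3 CPM in vehicle and at 89.9 and 85.5 CPM in Liq. Both Liq samples were lower, but 1 of them by less than 1 CPM, and the vehicle samples differed from each other by more than that (log2 fold change -0.11 with SE 0.08, 95% interval -0.27 to 0.05, edgeR adjusted p = 0.306). It was -0.04 without vehicle replicate 1 and -0.18 without vehicle replicate 2. CHAC1 (chromosome 15 from 41245160 to 41248710), which degrades glutathione and is often used as a sensitive readout of ATF4, was at 9.97 and 9.03 CPM in the vehicle samples, against 11.8 and 9.92 CPM after Liq. It was the only gene of the 10 whose groups overlapped, with 1 Liq sample between the 2 vehicle samples. Its log2 fold change of 0.19 had the widest interval of the set (SE 0.12, 95% interval -0.06 to 0.43, adjusted p = 0.262 from edgeR). It was 0.06 without Liq replicate 1 and 0.12 without vehicle replicate 2, and 0.32 without Liq replicate 2 (edgeR adjusted p = 0.05566).

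The amino acid synthesis enzymes were slightly higher in Liq without passing the test. ASNS (chromosome 7 from 97480989 to 97501854, minus strand), which makes asparagine, was at 163 and 158 CPM in vehicle and at 177 and 179 CPM in Liq. PHGDH (chromosome 1 from 120191034 to 120286841), the first enzyme of serine synthesis, was at 473 and 440 CPM in vehicle and at 510 and 491 CPM in Liq. PSAT1 (chromosome 9 from 80912041 to 80945009), the next enzyme of that pathway, was at 203 and 199 CPM in vehicle and at 210 and 233 CPM in Liq. For all 3 enzymes both Liq samples were above both vehicle samples. In PSAT1 the Liq samples differed from each other by more than the lower of them differed from vehicle. The log2 fold changes were 0.15 for ASNS (SE 0.07, adjusted p = 0.129), 0.13 for PHGDH (SE 0.06, adjusted p = 0.141) and 0.14 for PSAT1 (SE 0.07, adjusted p = 0.159), all from edgeR, and the upper ends of their 95% intervals were 0.29, 0.26 and 0.29. Offsets that follow the expression level brought all 3 past the threshold, with log2 fold changes of 0.21 for ASNS, 0.22 for PHGDH and 0.21 for PSAT1 (adjusted p = 0.02547, 0.01396 and 0.02723 from edgeR). The PSAT1 value turned on the Liq samples, being 0.21 without Liq replicate 1 (edgeR adjusted p = 0.02891) and 0.06 without Liq replicate 2 (edgeR adjusted p = 0.5889). PHGDH was at 0.08 without vehicle replicate 2 (edgeR adjusted p = 0.6843). An exon of ASNS overlaps a long noncoding RNA on the same strand. The annotation holds 5 pseudogenes of ASNS, 4 of PSAT1 and 4 of ATF4, and reads that align to more than 1 place were left out by the authors' counting, so these 3 genes may be undercounted.

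The 2 stress-linked inhibitors of mTORC1 in the set were DDIT4, which rose, and SESN2, which did not pass. mTORC1 is the kinase complex that drives growth when nutrients are plentiful. DDIT4 (chromosome 10 from 74033678 to 74035794) encodes REDD1, which restrains mTORC1 and is also induced by hypoxia and glucocorticoids. It had 29.2 and 25.1 CPM in the vehicle samples and 43.2 and 40.7 CPM in the Liq samples. Both Liq samples were well above both vehicle samples. The level rose 1.54-fold (95% interval 1.35 to 1.76), or by 0.63 on the log2 scale (SE 0.09, edgeR adjusted p = 1.689e-05), and 94.3% of all tested genes had a lower log2 fold change. The vehicle samples were the less alike of the pairs, and the log2 fold change was 0.74 without vehicle replicate 1 and 0.52 without vehicle replicate 2, past the adjusted p threshold in both. SESN2 (chromosome 1 from 28586029 to 28609002), which encodes the leucine sensor Sestrin2 and also answers to p53 and NRF2, was at 44.6 and 43.5 CPM in vehicle and at 40.3 and 37.9 CPM in Liq. Both Liq samples were below both vehicle samples, and the difference did not pass the test (log2 fold change -0.17 with SE 0.08, 95% interval -0.35 to 0.001, edgeR adjusted p = 0.141).

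To compare the genes with each other, CPM were divided by the length of 1 reference transcript per gene. On this scale the order of levels in vehicle, from high to low, was PHGDH, ATF4, PPP1R15A, PSAT1, ASNS, TRIB3, DDIT3, DDIT4, SESN2 and CHAC1. It ran from 245 ± 13 CPM per kb for PHGDH and 215 ± 1 CPM per kb for ATF4 to 12.7 ± 0.2 CPM per kb for SESN2 and 6.25 ± 0.44 CPM per kb for CHAC1 (SD, n = 2), a span of 39.1-fold. In vehicle every gene was separate from the next in both samples. In Liq the order was the same except that PSAT1 (100 ± 7 CPM per kb) stood above PPP1R15A (88.5 ± 3.7 CPM per kb). 

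Among 10 tested relatives and dimer partners of these genes, 2 rose (SESN3 and TRIB2) and 2 fell (TRIB1 and ATF5). The share that passed was 40%, against 24% of all tested genes. TRIB1, a pseudokinase of the same family as TRIB3 that targets C/EBPα for degradation, was at 39.7 and 42.0 CPM in vehicle and at 24.0 and 22.1 CPM in Liq, or -0.83 on the log2 scale (SE 0.09, edgeR adjusted p = 1.557e-07). SESN3, a sestrin like SESN2, was at 5.40 and 7.48 CPM in the vehicle samples and at 14.96 and 16.06 CPM after Liq, or 1.28 on the log2 scale (SE 0.13, edgeR adjusted p = 2.871e-08). Both calls held under all 11 alternatives, and whether TRIB1 differs from TRIB3, or SESN3 from SESN2, in its response was not tested. The TRIB2 and ATF5 changes were small, at 0.26 and -0.30 on the log2 scale (edgeR adjusted p = 0.0451 and 0.029), and were lost in 6 and 5 of the 11 alternatives. Both lost their calls without vehicle replicate 1, without vehicle replicate 2 and without Liq replicate 2 (edgeR adjusted p = 0.306, 0.2318 and 0.09554 for TRIB2 and 0.2235, 0.1241 and 0.1708 for ATF5). SESN1, CHAC2 and PPP1R15B did not pass (log2 fold changes 0.16, 0.02 and 0.15), and DDIT4L had 0 reads in every sample. Of the dimer partners, CEBPB and CEBPG did not pass (log2 fold changes -0.04 and -0.04). ATF3, a CHOP partner chosen after its values were seen, had 2.77 ± 0.31 CPM in the vehicle group against 3.36 ± 0.18 CPM after Liq (SD, n = 2) and did not pass (0.28 on the log2 scale, edgeR adjusted p = 0.232).

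Upstream of ATF4, a list held eIF2 kinases, eIF2 and eIF2B subunits, and EIF2A, a separate initiation factor. It also held, as regulators, GCN1, IMPACT, NCK1 and the protein phosphatase 1 catalytic subunits. Of its 19 tested genes, 0 rose and 3 fell, with a median log2 fold change of -0.11. Both Liq samples lay below both vehicle samples in 12 of the 19 genes and above them in 2, against 30.2% and 31.5% of all tested genes. The share that passed was 15.8%, against 24% of all tested genes. Those that fell were the eIF2B subunits EIF2B2 and EIF2B5 and the phosphatase subunit PPP1CA. The number that fell was 0 without vehicle replicate 1 and 7 without Liq replicate 2. The kinases PERK (EIF2AK3) and GCN2 (EIF2AK4), named after their values were seen, did not pass, with log2 fold changes of 0.07 and -0.03. Of the protein phosphatase 1 catalytic subunits, PPP1CB and PPP1CC did not pass (log2 fold changes -0.07 and -0.13). PPP1CA fell by 0.36 on the log2 scale (edgeR adjusted p = 0.000821). Without vehicle replicate 1 it did not pass (-0.28 on the log2 scale, edgeR adjusted p = 0.1144).

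Downstream, lists of other genes of the pathway were mixed. Of all tested genes 12.6% rose, 11.3% fell and 24% passed in either direction. The share that passed was under that 24% for stress transcription factors (16.7%), mTORC1 restraint (18.2%), death genes (22.2%) and autophagy genes (23.1%). It was higher for synthesis enzymes (33.3%), synthetases (35%), secreted markers (36.4%) and transporters (45.5%). Among 18 enzymes of serine, one-carbon and amino acid synthesis, 4 rose and 2 fell (median log2 fold change -0.03). The folate enzyme ALDH1L2 had 48.6 and 51.2 CPM in vehicle and 66.7 CPM in both Liq samples, a rise of 0.42 on the log2 scale that passed under all 11 alternatives. The serine pathway genes PSPH, SHMT2 and MTHFD2, named after their values were seen, did not pass (log2 fold changes -0.00, -0.03 and -0.11). Among 11 amino acid transporters, 5 rose and 0 fell (median 0.11). The cystine transporter SLC7A11, which is also an NRF2 target, was at 60.8 and 64.7 CPM in vehicle and at 147 and 176 CPM in Liq, a log2 fold change of 1.36 (SE 0.08). The glycine transporter SLC6A9 rose by a log2 fold change of 0.74 (SE 0.13), and both calls held under all 11 alternatives. Among 20 cytosolic aminoacyl-tRNA synthetases, 2 rose and 5 fell (median -0.09). AARS was among those that rose (0.27 on the log2 scale, edgeR adjusted p = 0.00261). HARS was among those that fell (-0.37 on the log2 scale, edgeR adjusted p = 0.000545). Of 12 stress transcription factors, 1 rose and 1 fell. ATF5 was the one that fell and is also counted above among the relatives, since some genes stand in more than 1 list. The gene that rose was NUPR1, a small chromatin protein induced by stress, from 6.54 and 4.67 CPM to 10.7 and 9.26 CPM. Of 9 tested genes of CHOP-linked death and ER oxidation, 1 rose and 1 fell. BCL2 was the one that rose (log2 fold change 0.33) and the inflammatory caspase CASP4 the one that fell (log2 fold change -0.41). Of 11 genes of mTORC1 restraint, 1 rose and 1 fell, and of 13 autophagy genes 1 rose and 2 fell. Of 11 secreted and other stress markers, 2 rose and 2 fell. GDF15 and NIBAN1, listed as FAM129A, rose (log2 fold changes 0.51 and 0.38), and STC2 fell (log2 fold change -0.33). TXNIP, an arrestin-like protein that binds thioredoxin and limits glucose uptake, fell from 78.3 ± 0.6 to 32.3 ± 0.9 CPM (SD, n = 2). Several of these counts were lower when either vehicle sample was left out. Without vehicle replicate 1 and without vehicle replicate 2, the enzymes that rose numbered 3 and 1 and those that fell 0 and 0, the transporters that rose 3 and 3, and the synthetases 0 and 0 that rose and 1 and 1 that fell. The single genes that rose in the lists of death genes and mTORC1 restraint, and those that fell among the transcription factors, mTORC1 restraint and autophagy genes, were also lost in both fits, and 1 of the secreted markers rose in each. The remaining vehicle sample is there assumed to vary like the Liq samples.

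Most tested genes of the ER chaperone branch rose. Of 21 tested genes of the ATF6 and XBP1 branch of the unfolded protein response, 15 rose, 0 fell and 6 did not pass, with a median log2 fold change of 0.34, against 12.6% of all tested genes that rose. Across the alternatives 11 to 16 of these genes rose and 0 fell, with 11 without vehicle replicate 1. HSPA5, which encodes the chaperone BiP, was at 639 and 618 CPM in vehicle and at 896 and 924 CPM in Liq (0.53 on the log2 scale, SE 0.06, edgeR adjusted p = 2.572e-07). CALR (calreticulin) and PDIA4 (a disulfide isomerase) rose by log2 fold changes of 0.54 and 0.55. The Liq samples were above the vehicle samples for all 3. The 6 that did not pass were XBP1 itself, DNAJB9, SYVN1, EDEM1, DERL1 and DERL2. Their log2 fold changes were 0.10, 0.23, 0.10, -0.02, 0.06 and 0.003. ATF6, listed with the stress transcription factors, did not pass either (-0.02). The difference between this list and the 10 ATF4 and CHOP genes was not tested, since the lists were chosen with results known.

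DDIT4 and SESN2 also answer to p53, hypoxia and NRF2, and lists for these were set beside them. Of all tested genes 12.6% rose, 11.3% fell and 24% passed in either direction. In the p53, hypoxia and NRF2 lists 27.3%, 22.2% and 83.3% passed. Of 11 p53 targets, 1 rose and 2 fell, and the cell cycle inhibitor CDKN1A fell from 18.5 ± 0.9 to 8.75 ± 0.17 CPM (SD, n = 2), or -1.08 on the log2 scale. Of 9 hypoxia targets, 1 rose and 1 fell, LDHA being the one that fell (log2 fold change -0.39) and CA9 the one that rose, from 7 and 9 reads in vehicle to 23 and 30 in Liq, a call lost without vehicle replicate 1 or 2 (edgeR adjusted p = 0.06034 and 0.08593). In each of these fits, 0 p53 targets rose and 1 fell. Of 12 NRF2 targets, 10 rose and 0 fell, with a median log2 fold change of 0.97, and 10 to 12 rose under the alternatives. The part of these pathways in the values of DDIT4 and SESN2 was not tested.

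**Figure D3:**
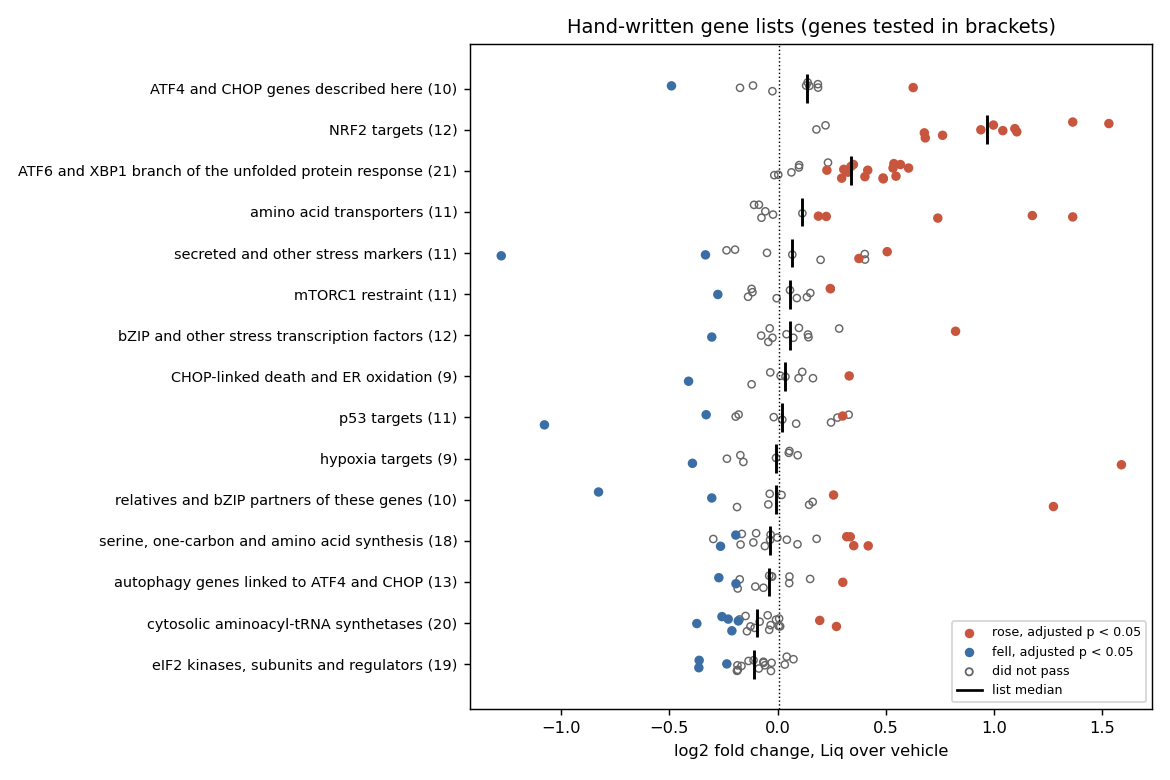
Log2 fold change, Liq over vehicle (horizontal axis), of every tested gene in the 10-gene set and in 14 hand-written lists (rows, the set first and the lists ordered by median); filled points passed the test, open points did not, black bars are list medians and the dotted line is the median of all tested genes. The 10-gene set has its median at 0.14 and 1 point on each side that passed, and the medians of the NRF2 targets and of the ATF6 and XBP1 list lie further right, at 0.97 and 0.34.

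**Figure D4:**
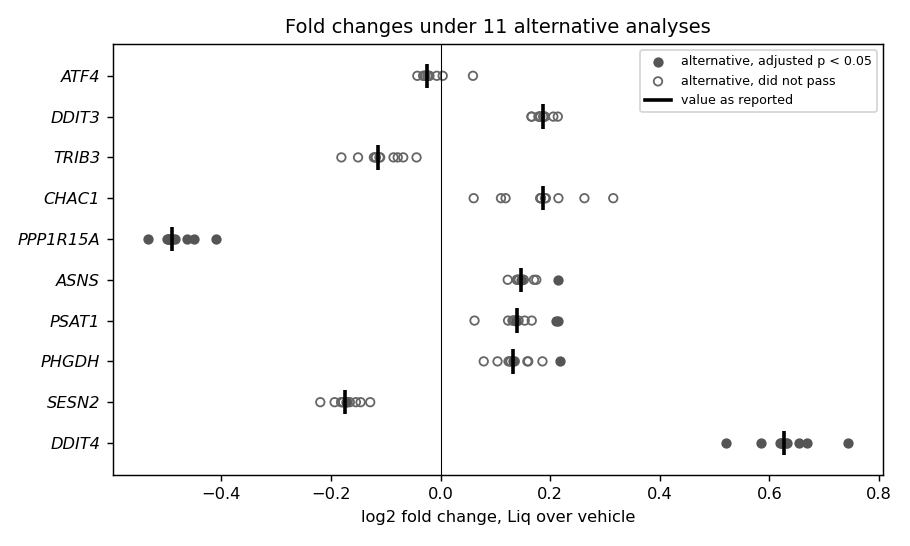
Log2 fold change of each of the 10 genes, Liq over vehicle (horizontal axis), under 11 alternative analyses (points, filled where the adjusted p was under 0.05) and as reported (black bars). DDIT4 stays between 0.52 and 0.74 and PPP1R15A between -0.53 and -0.41 with every point filled, and ATF4 lies on both sides of 0.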

How the data were processed

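RNA-seq of 2 vehicle and 2 Liq samples of ES2 cells was analysed, grouped by the sample titles. The authors sequenced TruSeq libraries as 100-base single-end reads, used bcl2fastq 2.17.1.14, aligned with TopHat2 2.0.8b to hg19 (GRCh37) and counted with HTSeq. They deposited whole-number counts per gene symbol, neither normalized nor pooled. The HTSeq version, strand setting and annotation are not given in the sources used here. The 5 tally rows, which name no gene, held 44.4% to 45.9% of reads, mostly reads aligned to more than 1 place, and were left out.

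Counts were tested in R 4.3.3 with edgeR 4.0.16 (filterByExpr with minimum count 10 and minimum total 15, TMM, glmQLFit, glmQLFTest, no replicate block), with Benjamini-Hochberg adjustment over 13546 genes. SE is the log2 fold change over the square root of F, and intervals are 95%. CPM use TMM-scaled library sizes. CPM per kb use the MANE Select transcript of GENCODE v44lift37 (for DDIT4, its principal transcript). Precision is set by 2 samples per group and by the totals given in the text. No pair of libraries agreed within sampling noise (chi-square per degree of freedom 6.33 to 71.4).

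The members and lists were chosen with earlier results of these data known. Named genes are the 10 members, the listed relatives, the estrogen receptors and up to 3 genes per list with the smallest p among those that passed. Other genes of the lists were named after their values were seen. DESeq2 1.42.0 (Wald), its size factors, upper-quartile scaling, loess offsets along the expression level (span 0.3, limma 3.58.1), 2 other filters, a replicate block, each sample left out, and 1.5-fold thresholds were alternatives. The motifs were chosen after the data were seen.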

Additional observations from a re-analysis of the deposited data

How the results depend on the processing

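Of 110 refits of the log2 fold changes of the 10 genes, 100 kept their direction and their side of the threshold, 8 came to pass it, 2 changed sign and 0 lost it. DDIT4 and PPP1R15A passed in all 11 alternatives. ATF4 changed sign with upper-quartile normalization (0.00398) and with loess offsets (0.0592), and never passed. With loess offsets 4 of the 10 genes rose and 1 fell, where 1488 of the 13546 tested genes rose and 1355 fell. Leaving out 1 sample in turn, 1 to 2 of the 10 rose (2 without Liq replicate 1) and 1 fell each time. At 1.5-fold, 0 of the 10 fell with either p-value.

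Over all tested genes the DESeq2 Wald test, run on the 17274 genes with a count so that test and filter changed together, gave 1027 that rose and 1317 that fell in place of 1712 and 1533 (43.8% of calls rose, against 52.8%), and leaving out 1 sample in turn gave 805 to 1966 that rose and 608 to 1814 that fell, lowest without vehicle replicate 1. At 1.5-fold, 581 rose and 293 fell with the adjusted p-value and 727 and 337 with the unadjusted one. Of all tested genes 12.6% rose and 11.3% fell in the main fit. The ATF6 and XBP1 list held 15 genes that rose and the NRF2 list 10. Over the 182 other genes of the 14 pathway lists, those included, 45 rose and 21 fell. These were 28 to 47 and 7 to 29 with 1 sample left out (28 that rose without vehicle replicate 2), with 7 that fell without vehicle replicate 1 and 8 without vehicle replicate 2, and 16 and 3 at 1.5-fold with either p-value. A stricter threshold lowers the counts by construction. Leaving out a vehicle sample lowered them and leaving out a Liq sample did not do so to the same extent, and the cause was not tested.

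The replicate numbers are shared by the labels but nothing says that they pair samples, and deviations of same-numbered samples had a correlation of 0.0483 over 13546 genes. With the replicate number as a block, 4 of the 10 genes rose (ASNS, PSAT1 and PHGDH besides DDIT4) and 2 fell (SESN2 besides PPP1R15A). Of all 13546 tested genes 2321 then rose and 2474 fell, against 1712 and 1533 without the block. Of the 182 list genes 39 fell with the block. Of the 19 tested eIF2 kinases, subunits and regulators 9 fell with the block, against 3 without it.

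Reads per sample did not limit the 10 genes, whereas ESR2 and DDIT4L were too low to test.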
